A study of Rattus norvegicus with 36 samples.

Results

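The genes described here encode cytokines of the interleukin-6 (IL-6) family, interleukin-15, their receptors and the JAK-STAT pathway inside the cell. The list held 10 genes: the ligands Il6, Lif and Il15, the receptors Il6r, Il6st and Osmr, the transcription factor Stat3, and the feedback inhibitors Socs3, Socs2 and Cish. A gene was read from probe sets that the platform annotation assigns to it alone and, where it had several, from the probe set of highest mean log2 signal over all arrays. By that rule 9 of the 10 genes were found, with 14 probe sets between them, out of 14217 genes that had a probe set of their own. Osmr was not matched and was not analysed here.

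The soleus, a slow postural muscle of the calf, was taken from the left leg of adult female Sprague Dawley rats, with 36 rats and 1 array each. All injured rats had a moderate contusion of the thoracic spinal cord (spinal cord injury, SCI), and no rat carried a transgene or a deletion. The 6 groups of 6 were rats 3 days after injury (SCI3d), rats 8 days after injury with treadmill training (SCI8d + TM), rats 8 days after injury without it (SCI8d), rats 14 days after injury with training (SCI14d + TM), rats 14 days after injury without it (SCI14d), and age-matched controls (CTR) sampled as the baseline. Training began a week after injury, so the SCI8d + TM rats had only just begun it and the SCI14d + TM rats had trained through most of the second week, and trained muscle was taken some hours after the last session. A moderate contusion leaves part of the cord intact, and injured rats were also offered a supplementary diet. No sham surgery is described for the controls, so surgery and anaesthesia cannot be told apart from the cord injury itself.

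IL-6 family cytokines bind a receptor of their own and then share gp130, the signal-transducing subunit that Il6st encodes. Gp130 carries Janus kinases, which phosphorylate STAT3. STAT3 in turn switches on Socs3, whose product shuts the receptor down, while growth hormone, IL-15 and related signals act mainly through STAT5 and induce Cish and Socs2. Contracting muscle is known to release IL-6, IL-15 is abundant in muscle, and long-lasting gp130 and STAT3 activity is linked to muscle wasting in rodents.

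Values are MAS 5.0 signals, a summary of fluorescence per probe set in arbitrary units, which the authors had scaled so that the trimmed mean of every array was 800. Array medians lay between 167 and 236. The 8 skeletal muscle marker genes of soleus (Acta1, Ckm, Mb, Myh7, Myl2, Tnnt1, Tnni1 and Tnnc1) were all measured and together summed to between 238410 and 605684 per array. Their list had 0 calls in any comparison. The ratio of the 3' to the 5' GAPDH control probe sets, a sign of RNA integrity, was 1.02 to 1.61, with the highest values in 1 control, 1 SCI14d and 1 SCI14d + TM array. In whole muscle, fewer cells of a type and less RNA per cell cannot be told apart.

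Fold changes are given on the log2 scale with the standard error (SE) of a limma fit over all 36 arrays, and a change was called where the p adjusted by Benjamini-Hochberg over 31042 probe sets was under 0.05. In SCI3d against controls 1 of the 9 genes was called, Il6st, which rose, and 16.5% of all probe sets were called, 7.22% of all as higher. None of the 9 was called in SCI8d against controls, where 6.29% of all probe sets were called, and none in SCI14d against controls, where 3.19% were. The trained groups gave 0 of 9 calls against controls in SCI8d + TM (12.2% of all probe sets) and 0 of 9 in SCI14d + TM (0.358%). Between the untrained times, 1 of 9 was called in SCI8d against SCI3d (Il6st, lower; 6.79% of all probe sets, 3.14% lower), 2 of 9 in SCI14d against SCI3d (Il15, higher, and Il6st, lower; 12.9%, with 7.99% higher and 4.94% lower) and 0 of 9 in SCI14d against SCI8d (0%). At an unadjusted p under 0.05 against controls, 2 of the 9 genes passed in SCI3d (Il6st and Il15; 27.6% of all probe sets), 1 in SCI8d (Cish; 20.6%) and 2 in SCI14d (Socs3 and Cish; 17.7%), shares near or below those of all probe sets. With 9 genes, 1 call is a share close to that of all probe sets in SCI3d, and the later groups had none against controls.

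**Figure D1:**
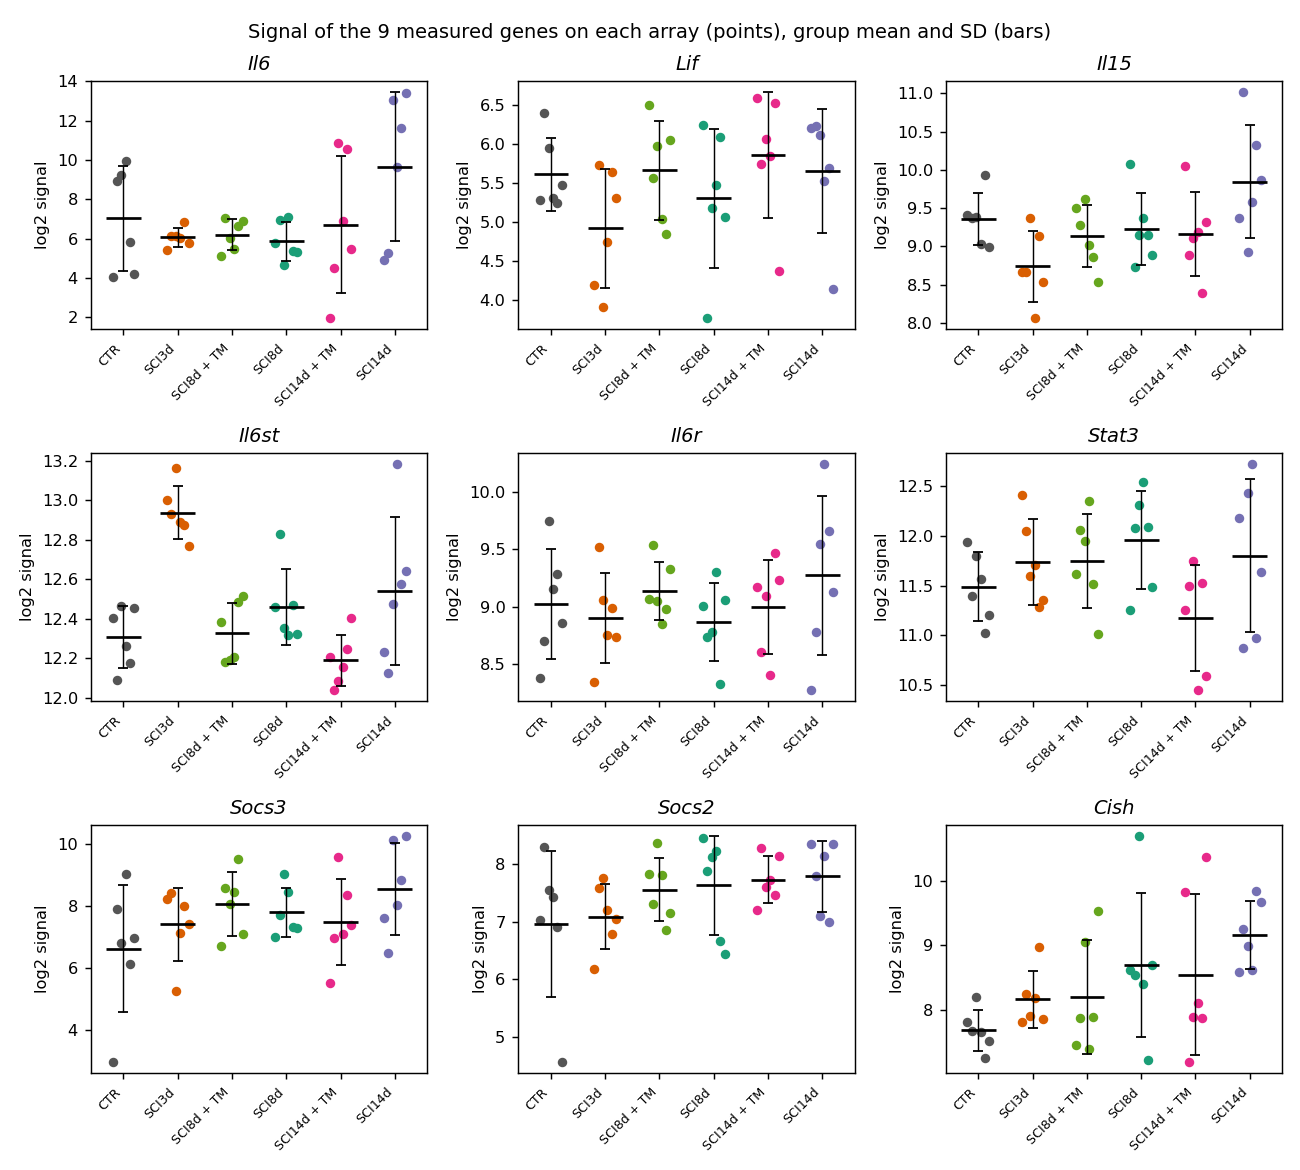
Log2 signal of the 9 measured genes (vertical axes) on each of the 36 arrays by group (horizontal axes, controls first and then by day, with the trained group left of the untrained one); points are arrays, and bars give the mean and SD of 6. Il6st in SCI3d lies above every control array, Cish in SCI14d lies above every control array, and Il6 spreads over more than 3 log2 units SD in SCI14d and SCI14d + TM.

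Il6, the founding ligand of the family, had the widest spread of the 9 genes. It was between 43.0 and 115 in SCI3d (median 67.2), between 34.8 and 134 in SCI8d + TM (median 82.8) and between 25.2 and 139 in SCI8d (median 48.0). In SCI14d + TM the signals were 3.92, 22.5, 44.8, 118, 1478 and 1870, in SCI14d they were 29.98, 38.9, 790.3, 3160, 8559 and 10954, and in controls 16.9, 18.2, 56.6, 493, 594 and 1000.4. The low and high arrays of the last 3 groups were thus far apart, and the 3 highest SCI14d arrays lay above every control. The probe set stood at percentile 42.0 of mean signal among all probe sets.

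The group SDs on the log2 scale were 0.47 in SCI3d, 3.49 in SCI14d + TM, 3.78 in SCI14d and 2.66 in controls. The SCI14d mean was 2.62 log2 units above controls (SE 1.29, adjusted p = 0.285, limma), and it was 3.59 above SCI3d (SE 1.29, adjusted p = 0.0606). Neither passed. Without SCI14d replicate 1 or without replicate 2, the difference from SCI3d was 4.54 and 4.47 and passed, and without replicate 6 it was 2.84 (adjusted p = 0.158). It passed in 6 of 17 other settings. Without the 6 arrays of highest S100a8 (a neutrophil gene), which include the 3 SCI14d arrays of highest Il6, it was 0.54 (adjusted p = 0.829, limma).

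The 9 arrays with Il6 signals of 493 or more were 4 in SCI14d, 2 in SCI14d + TM and 3 in controls, and the other 27 arrays reached at most 139. These arrays were singled out after their values were seen, so what follows is a description per array with no test. The same 9 arrays were also the 9 highest for Icam1, an adhesion molecule, at 811 to 2791 with 278 to 803 on the other 27. They held 8 of the 9 highest arrays for Ccl2, a monocyte chemokine, and 8 of the 9 for Junb, an immediate early gene that STAT3 is known to induce. For Osm, which encodes oncostatin M, another ligand of the family made by neutrophils and macrophages, they held 7 of the 9 highest, with 90.7 to 1355 against 14.8 to 178. Socs3 shared 5 of its 9 highest arrays with Il6, and Stat3 shared 2.

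The neutrophil markers S100a8, S100a9 and Csf3r were often high on the same arrays as Il6. Each shared 7 of its 9 highest arrays with Il6, and S100a8 reached 7233, 9054 and 11442 on the 3 SCI14d arrays of highest Il6. Camp, the remaining measured marker, was not compared array by array. The 4 measured of 6 neutrophil markers summed to 1604 to 34250 in SCI14d + TM, 1603 to 37329 in SCI14d and 323 to 31329 in controls, and the other groups lay at 949 to 6298 (SCI3d), 423 to 2961 (SCI8d + TM) and 652 to 3717 (SCI8d). Their group differences gave 0 calls, and Mpo and Elane, which encode neutrophil granule enzymes, were not matched. When the 6 arrays with S100a8 above 5000 were left out (chosen after the data were seen, the next highest at 2739), Il6 in SCI14d exceeded controls by 0.85 in place of 2.62. The 3 SCI14d arrays left out were those of highest Il6, so a fall of the SCI14d mean was fixed by the choice. With the mean of the neutrophil markers as a covariate, a setting also added after the data were seen, the difference was 0.81. That mean includes S100a8, so it is no independent check. Whether neutrophils were the source of the Il6 signal was not tested.

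**Figure D2:**
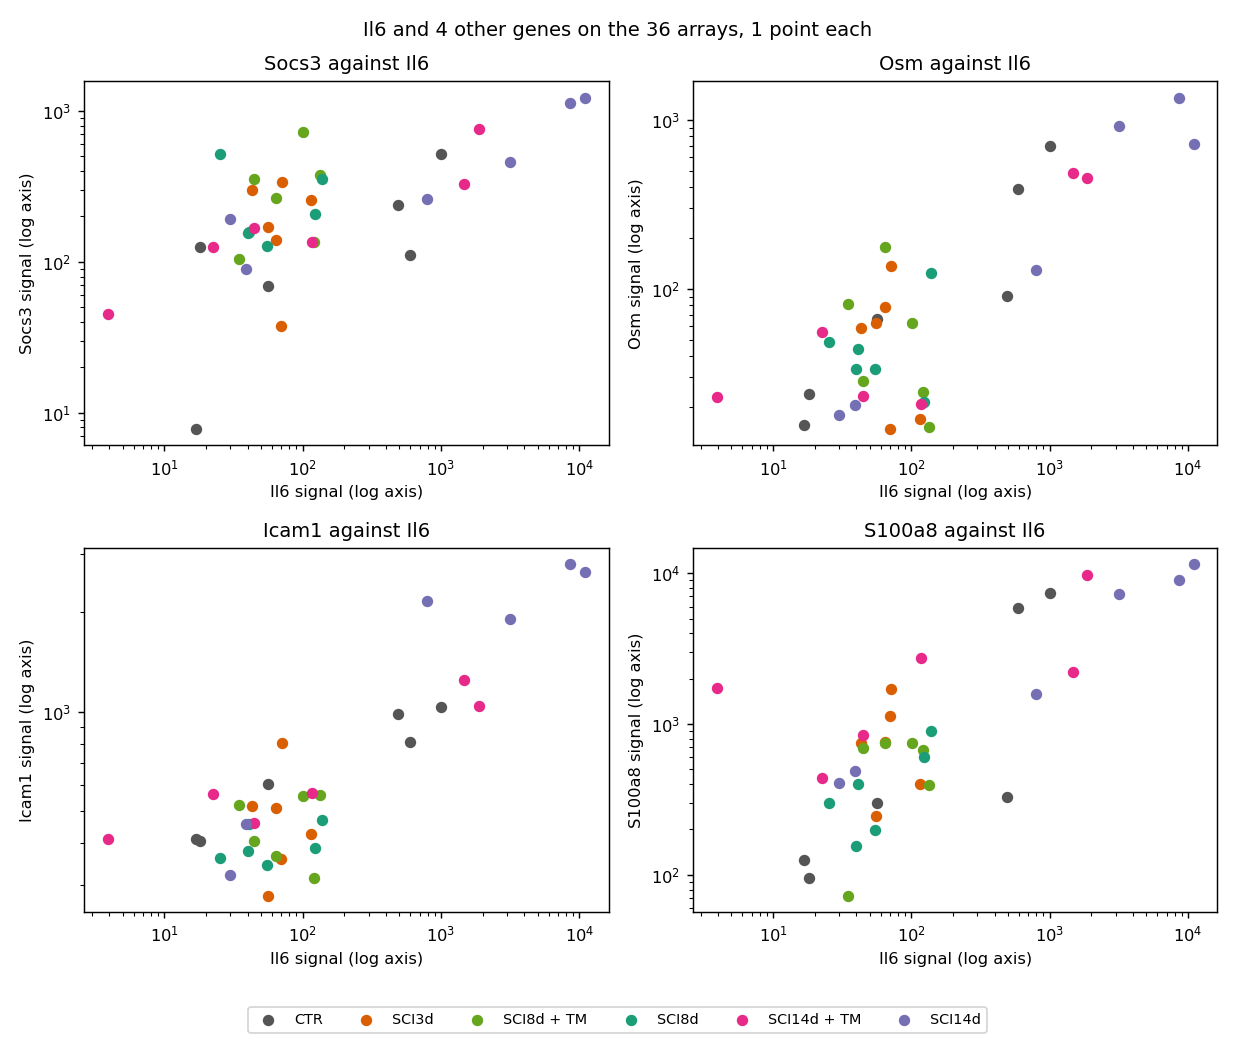
Signals of Socs3, Osm, Icam1 and S100a8 (vertical axes) against Il6 (horizontal axes) on the 36 arrays, both on log axes, with 1 point per array coloured by group. The 9 arrays with Il6 at 493 or more belong to SCI14d, SCI14d + TM and the controls, and all 9 have Icam1 at 811 or more.

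Lif, which encodes leukemia inhibitory factor, a gp130 ligand made by injured muscle and nerve, was dim throughout. Its signal ranged over 15.0 to 53.2 in SCI3d, 28.6 to 90.5 in SCI8d + TM, 13.6 to 75.8 in SCI8d, 20.6 to 96.5 in SCI14d + TM, 17.6 to 74.9 in SCI14d and 37.9 to 84.4 in controls. All groups overlapped, and the probe set stood at percentile 26.0 of mean signal. The difference of SCI3d from controls was -0.69 (SE 0.43, adjusted p = 0.321), and the interval of -1.57 to 0.19 does not exclude a 2-fold fall.

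Il15 encodes a cytokine of the common gamma chain family that muscle fibres produce. Its signal was 268 to 663 in SCI3d (median 407), 370 to 784 in SCI8d + TM (median 572), 427 to 1080 in SCI8d (median 568), 336 to 1065 in SCI14d + TM (median 567), 486 to 2065 in SCI14d (median 847) and 510 to 981 in controls (median 664). The SCI3d group held the lowest median and SCI14d the highest, with 4 of 6 SCI3d arrays below every control and 5 of 6 SCI14d arrays above every SCI3d array. Il15 rose in SCI14d against SCI3d by 1.10 log2 units, 2.15-fold (SE 0.28, adjusted p = 0.0076), and the call held when any 1 array was left out.

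Against controls the same gene gave -0.61 in SCI3d (SE 0.28, adjusted p = 0.142) and 0.49 in SCI14d (SE 0.28, adjusted p = 0.368), neither past the threshold. SCI8d + TM, SCI8d and SCI14d + TM, with medians of 567 to 572, overlapped with each other and with controls. Fibroblast markers moved in the same direction between day 3 and day 14, with 6 of 8 risen in SCI14d against SCI3d (7.99% of all probe sets) and a median difference of 1.08. Estimates were mostly positive too for macrophage (10 of 14), T and NK cell (7 of 8), satellite cell (2 of 2), neutrophil (4 of 4), adipocyte (5 of 5) and endothelial markers (3 of 5). Few were positive for soleus muscle (0 of 8), erythrocyte (0 of 4) and Schwann cell markers (1 of 3). The part of any of these in the Il15 change was not tested. Of the subunits of the IL-15 receptor, Il2rb and Il2rg were measured and gave 0 calls in all comparisons, and Il15ra was not matched.

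Il6st encodes gp130, the chain that all ligands of the family share. Its probe set of highest mean signal, 1371926_at (percentile 95.8), read 6979, 7512, 7584, 7807, 8189 and 9165 in SCI3d, against 4363, 4632, 4907, 5415, 5613 and 5660 in controls. The lowest SCI3d array lay above the highest control, as was the case in either direction for 7.73% of all probe sets. The increase was 0.63 log2 units, or 1.55-fold (SE 0.12, adjusted p = 0.0004), and it was called when any 1 array was left out.

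Most arrays of the later groups lay below SCI3d on this probe set, including 5 of 6 in SCI8d and 5 of 6 in SCI14d. The signal was 4636 to 5853 in SCI8d + TM, 5102 to 7287 in SCI8d, 4209 to 5414 in SCI14d + TM and 4462 to 9306 in SCI14d. It fell in SCI8d against SCI3d by 0.48 (SE 0.12, adjusted p = 0.0153) and in SCI14d against SCI3d by 0.40 (SE 0.12, adjusted p = 0.0295). The SCI14d call was lost without SCI3d replicate 1 or 3 or without SCI14d replicate 1, 2 or 3, where the value lay between -0.39 and -0.31.

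The other 3 probe sets of Il6st split on day 3. Probe set 1370957_at lay on the same side as 1371926_at, at 3745 to 5404 in SCI3d, against 2853 to 3821 in controls, with 5 of 6 SCI3d arrays above every control and a difference of 0.42 that did not pass (SE 0.17, adjusted p = 0.0826). Probe set 1373140_at read 1546 to 2947 in SCI3d, against 2158 to 4663 in controls (-0.40, SE 0.20, adjusted p = 0.18), and 1383489_at read 1281 to 1967 in SCI3d, against 1485 to 3134 in controls (-0.38, SE 0.17, adjusted p = 0.129). So 2 probe sets had higher and 2 had lower means in SCI3d, and 1371926_at was the one called.

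The disagreement was tested on the arrays themselves, as the difference in log2 signal between each pair of probe sets. For the 4 pairs that joined a probe set of the higher pair with one of the lower pair, this difference was larger in SCI3d than in controls by 0.80 to 1.03 log2 units, with no overlap between the 6 SCI3d and the 6 control arrays (exact permutation test, two-sided, p = 0.00216, the smallest that 924 arrangements allow; 0.00371 after Benjamini-Hochberg over 12 tests). Within the higher pair the difference changed by 0.20 (exact permutation p = 0.0498, adjusted 0.0664) and within the lower pair by -0.02 (exact permutation p = 0.825). In SCI14d against SCI3d, which uses the same 6 SCI3d arrays and is therefore no independent repeat, 1373140_at rose in SCI14d against SCI3d by 0.69 (SE 0.20, adjusted p = 0.0185) and 1383489_at by 0.49 (SE 0.17, adjusted p = 0.0482), while 1371926_at fell and 1370957_at gave -0.40 (adjusted p = 0.117). In SCI8d against SCI3d the 3 other probe sets gave -0.21 (1370957_at), 0.36 (1373140_at) and 0.25 (1383489_at), none called, so the direction of that fall also turned on 2 of the 4. The day 3 difference was positive on 2 of the 4 probe sets, and the mean of the 4 gave 0.07 in SCI3d against controls (adjusted p = 0.774). Where each probe set lies on the transcript was not analysed here.

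**Figure D3:**
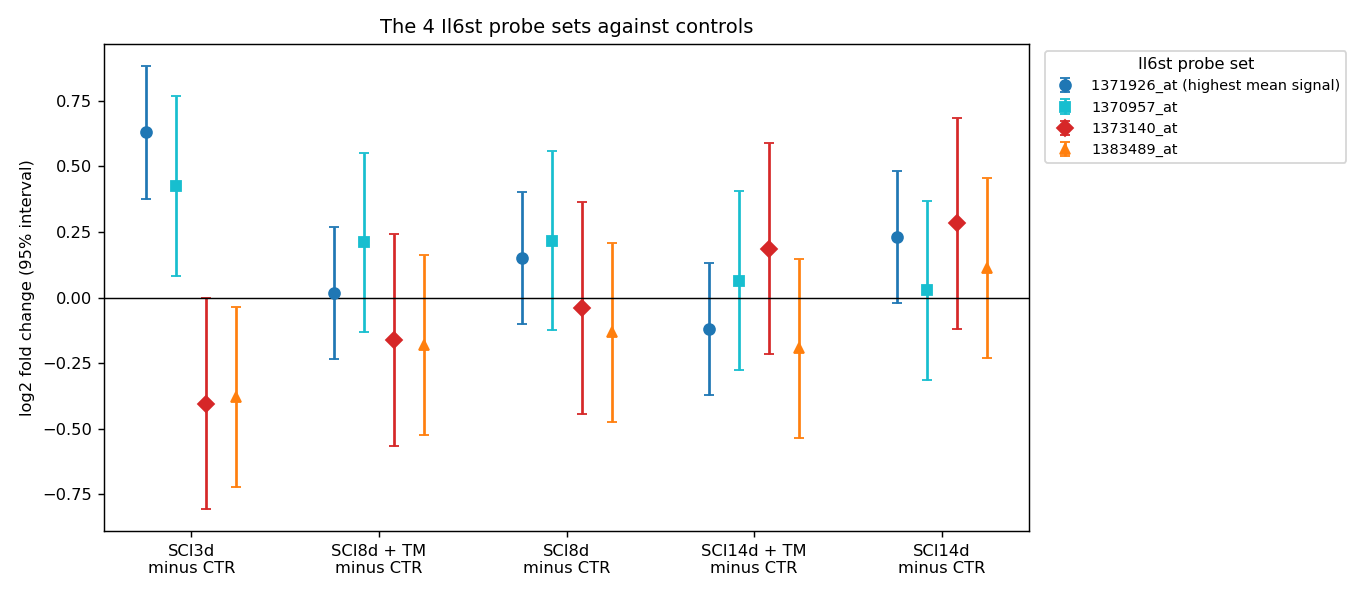
Log2 fold change against controls (vertical axis) of the 4 Il6st probe sets in the 5 injured groups (horizontal axis), as estimates with 95% intervals from the limma fit over 36 arrays. On day 3 the probe sets split into a pair above 0 (0.63 and 0.42) and a pair below 0 (-0.40 and -0.38), and in the later groups the intervals overlap.

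Il6r, which encodes the IL-6 binding chain, changed little. Its group medians lay between 470 in SCI3d and 654 in SCI14d, against 517 in controls, and all groups overlapped. The largest difference from controls was 0.25 in SCI14d (SE 0.25, 95% interval -0.26 to 0.76).

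Stat3, the transcription factor that gp130 activates, had a probe set at percentile 92.3. Its signal was 2499 to 5474 in SCI3d (median 3226), 2057 to 5235 in SCI8d + TM (median 3550), 2447 to 5986 in SCI8d (median 4349), 1396 to 3435 in SCI14d + TM (median 2664), 1866 to 6771 in SCI14d (median 3904) and 2080 to 3917 in controls (median 2866). In SCI8d 4 of 6 arrays lay above every control, and in SCI14d 3 lay above and 2 below. The SCI8d difference from controls was 0.48 (SE 0.29, adjusted p = 0.359), and the second Stat3 probe set gave 0.57 (SE 0.32). Transcript level does not report phosphorylation of the protein, which was not measured.

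Socs3, the direct brake on gp130 that STAT3 induces, averaged 208 ± 112 in SCI3d, 327 ± 225 in SCI8d + TM, 253 ± 153 in SCI8d, 260 ± 262 in SCI14d + TM, 559 ± 493 in SCI14d and 178 ± 183 in controls (SD, n = 6 each). SCI14d held 2 arrays at 1122 and 1226, replicates 3 and 6, which were also the 2 of highest Il6. The 3 highest Socs3 arrays of SCI14d were its 3 highest Il6 arrays, and in SCI14d + TM and the controls the highest array of both genes was the same. In SCI3d, SCI8d + TM and SCI8d, where Il6 did not exceed 139, Socs3 still ran from 37.7 to 727.

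The SCI14d difference of Socs3 from controls was 1.93 (SE 0.74, adjusted p = 0.142) and did not pass. It was 1.38 without the 6 arrays of high S100a8. The SCI14d arrays among these were its highest for Socs3, so a lower SCI14d mean was fixed by the choice. The control array of lowest Socs3, replicate 1 at 7.83, also had the lowest Il6 of its group at 16.9, and without it the Socs3 difference was 1.20.

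Cish encodes CIS, an inhibitor of cytokine signalling that STAT5 induces. Its signals were 223 to 504 in SCI3d (median 264), 167 to 738 in SCI8d + TM (median 235), 149 to 1665 in SCI8d (median 382) and 146 to 1327 in SCI14d + TM (median 256). In SCI14d they were 386, 391, 511, 611, 815 and 919, against 151, 183, 201, 202, 225 and 293 in controls. All 6 SCI14d arrays lay above all 6 controls, a separation seen in either direction in 2.29% of all probe sets, and in SCI8d 5 of 6 did.

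The difference was 1.48 log2 units, 2.79-fold, with an interval of 0.56 to 2.40 (SE 0.45, adjusted p = 0.0618), just outside the threshold. The second Cish probe set, 1388233_at, read 104 to 509 in SCI14d, against 51.0 to 109 in controls, a difference of 1.79 (SE 0.53, adjusted p = 0.0561). The call depended on the settings: it passed in 7 of 18 other settings, among them the 2 groups fitted alone (adjusted p = 0.0076) and scaling to Gapdh (1.72, adjusted p = 0.0321), and in 0 of 12 fits with 1 array left out (adjusted p = 0.0512 to 0.134). In SCI8d the difference from controls was 1.014 (SE 0.45, adjusted p = 0.189) and 0.61 without replicate 3 at 1665, and without the 6 arrays of high S100a8 the SCI14d difference was 1.26. Those arrays included the SCI14d arrays of highest Cish, at 815 and 919.

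The Cish promoter is shown because STAT5 and STAT3 bind the palindrome TTCNNNGAA, which reads the same on both strands. The sequence is that of RefSeq on build GRCr8, the 250 bases before the annotated start of the gene on the plus strand, chr8:116850719-116850968, with the matches in capitals.
Cish: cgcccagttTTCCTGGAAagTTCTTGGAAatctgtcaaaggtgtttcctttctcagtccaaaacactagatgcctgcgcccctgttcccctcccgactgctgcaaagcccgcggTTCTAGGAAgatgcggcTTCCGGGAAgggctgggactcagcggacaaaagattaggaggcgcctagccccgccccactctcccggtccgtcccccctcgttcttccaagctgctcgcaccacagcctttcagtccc
The 4 matches began 241, 230, 136 and 119 bases before the start and did not overlap. At least 1 match stood in 7.67% of 33469 rat promoters of this length, and 4 or more in 2 of them. Promoters were matched for 8 of the 10 listed genes, Osmr included and Lif and Socs2 not, and 1 of these 8, Cish, held the motif. A match is a string of letters and not a measured binding site.

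Socs2, which encodes a STAT5-induced inhibitor best known for restraining growth hormone, had medians of 139 in SCI3d, 191 in SCI8d + TM, 256 in SCI8d, 202 in SCI14d + TM and 251 in SCI14d, against 151 in controls. All groups overlapped, and 1 control array at 23.7 stood below the rest. The SCI14d difference from controls was 0.82 (SE 0.42, adjusted p = 0.305), and without that control array, replicate 6, it was 0.35.

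Training was read from the trained group against the untrained group of the same day. On day 8, 0 of the 9 genes and 0% of all probe sets were called, and 0 of the 9 had an unadjusted p under 0.05 (4.33% of all probe sets). The estimates lay between -0.50 for Cish and 0.36 for Lif, with an interval of -0.39 to 0.12 for Il6st and of -0.79 to 0.37 for Stat3. For Il6 the interval was -2.28 to 2.97. It rests on 1 spread shared by all 6 groups, so its width does not describe the day 8 arrays alone. The log2 SD of Il6 was 0.80 in SCI8d + TM and 0.97 in SCI8d, against 3.78 in SCI14d.

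On day 14, 0 of the 9 genes and 0.00322% of all probe sets (1 of them) were called, but 8 of 9 estimates were negative, with a median of -0.62 against -0.03 over all probe sets. The values were -2.95 for Il6 (SE 1.29), -1.08 for Socs3 (SE 0.74), -0.69 for Il15 (SE 0.28), -0.63 for Stat3 (SE 0.29), -0.62 for Cish (SE 0.45) and -0.35 for Il6st (SE 0.12). The exception was Lif at 0.21 (SE 0.43). SCI14d replicate 4, an array of high GAPDH ratio (1.35), was the highest of its group for Il6st (9306), Stat3 (6771) and Il6r (1211). Without it the estimates were -0.22 for Il6st, -0.44 for Stat3 and -0.08 for Il6r. Il6, Il6st, Stat3 and Il15 had an unadjusted p under 0.05, as had 5.96% of all probe sets, and the adjusted p of the 9 genes was 0.708 or more (limma). For Il6st and Stat3 this held on the chosen probe set only. The second Stat3 probe set gave -0.50 (unadjusted p = 0.129, limma). The other Il6st probe sets had unadjusted p = 0.83 (1370957_at), 0.629 (1373140_at) and 0.0789 (1383489_at) in the same fit.

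The array values show how far the groups overlapped. All 6 SCI14d + TM arrays lay below the SCI14d median for Il6st on probe set 1371926_at and for Stat3 on 1371781_at, while 5 of 6 did for Il6, Il6r, Socs3 and Il15. On the second Stat3 probe set, 1370224_at, 1 of 6 lay above the SCI14d median. The other Il6st probe sets differed: on 1370957_at 5 of 6 SCI14d + TM arrays lay above the SCI14d median (0.04), on 1373140_at 4 of 6 did (-0.10) and on 1383489_at 0 of 6 did (-0.31). For Cish on 1378586_at 4 of the 6 SCI14d + TM arrays lay below every SCI14d array, at 146 to 276, and the other 2 read 907 and 1327. On the second Cish probe set, 1388233_at, 1 of 6 lay below every SCI14d array (-0.43, SE 0.53). In SCI14d against controls, 9 of 9 estimates were positive (median 0.49, against 0.08 over all probe sets). Both comparisons use the same 6 SCI14d arrays, so their opposite signs are not independent of each other. The 8 skeletal muscle markers of soleus ran the other way with no call, with 8 of 8 positive in SCI14d + TM against SCI14d (median 0.11) and 8 of 8 negative in SCI14d against controls (median -0.31). Their part in the result was not tested.

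**Figure D4:**
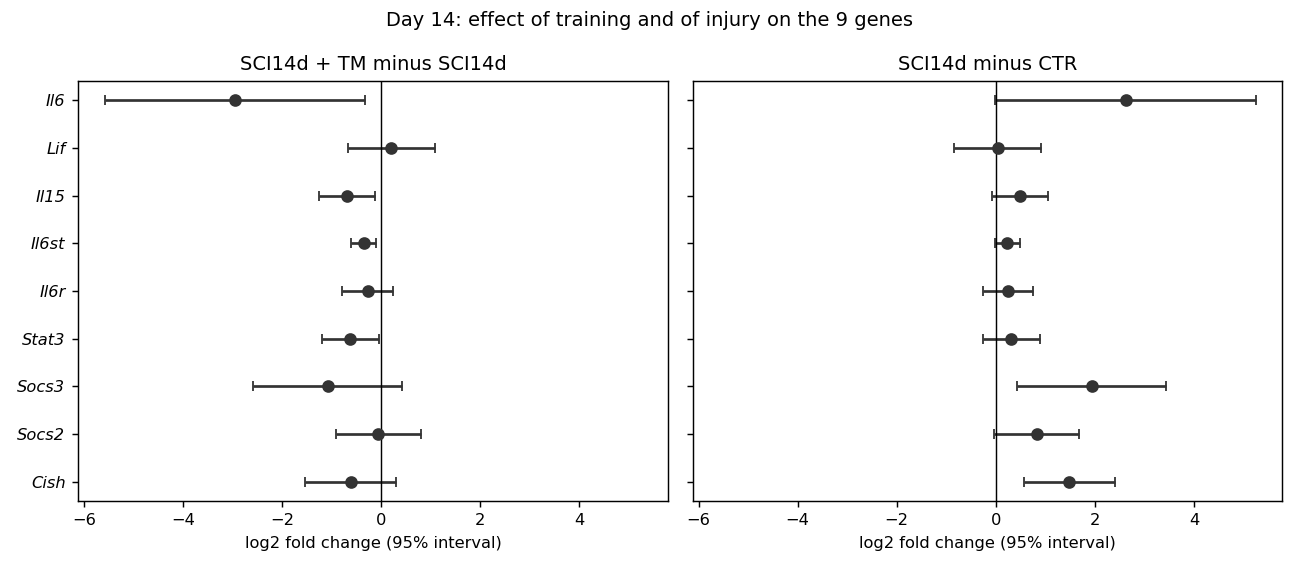
Log2 fold change (horizontal axes) of the 9 genes (vertical axis) with 95% intervals, for SCI14d + TM minus SCI14d on the left and SCI14d minus controls on the right. Estimates were negative for 8 of 9 genes on the left and positive for 9 of 9 on the right, none of them called.

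The test of whether training differed between the days gave 0 calls among the 9 genes and 0% of all probe sets. For Il6 the day 14 training estimate less the day 8 one was -3.30 (SE 1.83), and for Il6r it was -0.54 (SE 0.35). Without the 6 arrays of S100a8 above 5000, of which 3 were SCI14d arrays and 1 SCI14d + TM, the day 14 training difference of Il6 was -0.73 in place of -2.95, that of Socs3 -0.31 in place of -1.08, that of Cish -0.15 in place of -0.62 and that of Il6r -0.12 in place of -0.27. The SCI14d and SCI14d + TM arrays left out were those of highest Il6 and Socs3 in their groups, so lower means of both genes there were fixed by the choice. They also included the SCI14d arrays of highest Cish, at 815 and 919, so the smaller Cish difference is no separate result. Lif turned to -0.17, while Stat3 gave -0.86, Il15 -0.82, Socs2 -0.34 and Il6st -0.30, and the adjusted p of all 9 was 0.991 or more.

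The lists of other pathway genes were read in the same fit. Of 4 Janus kinases, Jak2, which gp130 and the growth hormone receptor both carry, was the one gene called against controls. Its signal was 691 to 1076 in SCI8d and 790.1 to 2182 in SCI14d, against 411 to 598 in controls, so that both groups lay apart from the controls. Such a separation, in either direction, was seen in 2.8% of all probe sets in SCI8d and 2.29% in SCI14d. Jak2 rose by 0.86 in SCI8d (SE 0.24, adjusted p = 0.0256), by 1.15 in SCI14d (SE 0.24, adjusted p = 0.0067) and by 0.84 in SCI8d + TM (SE 0.24, adjusted p = 0.0179), while the SCI14d + TM difference was 0.29 (SE 0.24, adjusted p = 0.67). The day 14 training difference was -0.86 (SE 0.24, adjusted p = 0.445) and did not pass.

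Among 6 measured of 8 other IL-6 family ligands, Ctf1 (cardiotrophin-1) fell in SCI8d by 1.18 (SE 0.31, adjusted p = 0.0177) and in SCI8d + TM by 1.24 (SE 0.31, adjusted p = 0.0077), both against controls. Il11, which encodes a ligand of fibrosis and repair, read 45.3 to 245 in SCI14d, against 6.01 to 72.5 in SCI3d. It was called as higher (adjusted p = 0.0128), but its probe set was among the dimmest 40% and detection calls were not used, so no size is given. In the same comparison Ebi3 rose by 0.79, while Cntf, the ciliary neurotrophic factor of Schwann cells, fell by 0.68. Among 4 other receptor chains Il11ra1, the IL-11 receptor, fell in SCI3d by 0.82 (SE 0.22, adjusted p = 0.0087) and in SCI8d + TM by 0.93, and the others gave 0 calls.

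Of 12 measured brakes on the pathway, 2 rose in SCI3d against controls and 0 fell, where 7.22% of all probe sets were called higher and 16.5% in all. They were Ptpn2, a phosphatase that removes phosphate from Janus kinases and STATs, by 0.76 (SE 0.16, adjusted p = 0.0008), and Pias2, a STAT-binding SUMO ligase, by 0.29 (SE 0.10, adjusted p = 0.0475). Ptpn2 read 1820 to 3226 in SCI3d, against 1295 to 1719 in controls. Ptpn11, which encodes SHP2, the phosphatase docked on gp130, fell in SCI8d by 0.40, in SCI14d by 0.51 and in SCI8d + TM by 0.42 against controls (SE 0.10 each, adjusted p = 0.0131, 0.0037 and 0.0047 in that order), with no overlap with the controls in any of the 3. Of all probe sets, 2.8%, 2.29% and 7.17% lay apart in either direction in these comparisons, in the same order. SHP2 also passes the gp130 signal on to the MAP kinases.

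Ghr, the growth hormone receptor, fell in SCI3d by 0.72 (SE 0.18, adjusted p = 0.0051), and the other 4 genes of the inputs to STAT5 gave 0 calls against controls. Of 5 measured other STATs, 0 were called against controls, and Stat5a rose in SCI14d against SCI3d by 0.52 (SE 0.15, adjusted p = 0.0229).

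The list of 20 known STAT3 targets was measured in full. In SCI3d 2 of 20 rose against controls, beside 7.22% of all probe sets called higher and 16.5% in all: Timp1, an inhibitor of matrix proteases, by 1.90 (SE 0.61, adjusted p = 0.0271), and Tnfrsf12a, the receptor for TWEAK, by 2.10 (SE 0.52, adjusted p = 0.0043). In SCI8d A2m, the acute phase protease inhibitor of the rat, rose by 3.29 (SE 0.91, adjusted p = 0.0252), and in SCI14d 0 of 20 were called. Timp1 and Tnfrsf12a are also induced by signals other than STAT3. In SCI8d + TM 3 of 20 rose (Timp1, Tnfrsf12a and A2m) and Cebpb fell by 0.77, beside 12.2% of all probe sets called.

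On day 14 the list leaned in the same directions as the 9 genes, with no call. In SCI14d + TM against SCI14d 18 of 20 targets had negative estimates (median -0.64), and in SCI14d against controls 19 of 20 had positive ones (median 0.67). The difference between the training effects of the 2 days was negative for 20 of 20 (median -0.96, against -0.06 over all probe sets), with 0 called. These counts share the SCI14d arrays, and genes on 1 array are not independent replicates. The list holds Icam1, Ccl2 and Junb, whose highest arrays were largely those of highest Il6. The mean log2 level of its 20 genes relative to controls had a lowest array of -0.36 and a highest of 0.84 in SCI14d + TM, with -0.69 and 1.66 in SCI14d and -0.43 and 0.62 in controls, so the groups overlapped. The neutrophil markers moved the same way, with 0 of 4 positive in SCI14d + TM against SCI14d and 4 of 4 in SCI14d against controls, and their part in the lean was not tested.

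Il6st was the only one of the 9 genes called in an injured or trained group against controls, so genes of the most similar pattern were sought for it alone. Over the 5 comparisons with controls, among 10374 genes, the smallest mean absolute differences of log2 fold change were those of Zranb1 (0.049), Irf2 (0.053) and Ess2 (0.054). In SCI3d against controls Zranb1 gave 0.65 (SE 0.14), Ess2 0.64 (SE 0.13) and Irf2 0.67 (SE 0.38). These genes were chosen for estimates near those of Il6st, so values near its 0.63 were fixed by the choice and are no test. The pattern matched was that of the Il6st probe set of highest mean signal alone. In the same comparison the other Il6st probe sets gave 0.42, -0.40 and -0.38, and the mean of all its probe sets gave 0.07. All 5 comparisons share the control arrays.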

How the data were processed

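RNA of soleus from 36 rats was hybridized to Rat Genome 230 2.0 arrays, 1 array per rat. Per the submitters' processing notes and the methods of the study, the authors computed the deposited signal intensity of each probe set with MAS5 (Microarray Suite) on a linear scale. The 31099 probe sets were taken as deposited, 57 control probe sets were left out, and log2 was taken with no offset and no further normalization, since the trimmed mean (2% cut at each end) was 800.0 on every array (799.992 to 799.994). Detection calls were not used here. Genes were named from the platform annotation: 20826 probe sets had 1 symbol, 436 several and 9780 none.

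Groups came from the sample labels. A linear model on the 6 group means was fitted to all arrays (limma 3.58.1, R 4.3.3; eBayes with an intensity trend, 30 residual and 5.45 prior degrees of freedom), with Benjamini-Hochberg adjustment over 31042 probe sets and a threshold of 0.05. Intervals are 95% intervals of this fit. The number of arrays limits the precision. The study's own test was a t-test per probe set, run as an alternative. The fit was tested on simulated data. Alternatives were quantile normalization, median centring, scaling to Gapdh, an offset of 32, leaving out the dimmest 40% of probe sets, no intensity trend, array weights, the 2 groups alone, blocks, RNA quality, other probe sets, and leaving out each array. The members, lists and tests were chosen with earlier results of these data known. Named genes were the 10 listed, and of each pathway list up to 4 genes called against controls with the smallest p; genes named for SCI14d against SCI3d, or for their array pattern with Il6, were chosen after their values were seen. Promoters were read from RefSeq tables with Python 3.11.15, and figures were drawn with matplotlib 3.10.9. Labels do not say that same-numbered samples were paired. Replicates were separate rats.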

Additional observations from a re-analysis of the deposited data

Results flagged for a closer look

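Of 54 gene and group combinations, 3 held an array far from the other 5 by Dixon's test at its 95% critical value, and chance gives about 1 in 20. Lif in SCI14d had its lowest array, replicate 6, at 17.6 with the next at 46.0 (gap over range on the log2 scale 0.664). Il6st in SCI8d had its highest array, replicate 2, at 7287 with the next at 5676 (0.701). Socs2 in controls had its lowest array, replicate 6, at 23.7 with the next at 120 (0.626).

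Differences between times after injury were tested directly and passed for 3 results (limma, adjusted p under 0.05): Il6st in SCI8d against SCI3d (-0.48), Il6st in SCI14d against SCI3d (-0.40) and Il15 in SCI14d against SCI3d (1.10). For Il6st in SCI8d the array of replicate 2 stood nearest to the SCI3d values, and without it the difference was -0.55 (adjusted p = 0.0043).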

How the results depend on the processing

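Of the 9 genes, the number called in SCI14d against SCI3d (2 as reported) was 1 with quantile normalization, with probe sets averaged per gene and without the 6 arrays of S100a8 above 5000 (chosen after seeing the data), 4 with the methods' t-test unadjusted, 0 with it adjusted, and 1 to 2 when 1 array was left out. The genes changed under other settings too: Il6st was lost with scaling to Gapdh (-0.19, adjusted p = 0.557) and with the 2 groups alone (adjusted p = 0.166), Cish was gained with the 2 groups alone, and Il6 was gained with scaling to Gapdh, the offset of 32, the dim filter and array weights. In SCI14d against controls (0 as reported) it was 1, Cish, with scaling to Gapdh, without the dimmest 40% of probe sets, with array weights, with the 2 groups alone, with the methods' t-test unadjusted and adjusted, and with probe sets averaged per gene. In SCI8d against SCI3d (1 as reported) it was 0 with scaling to Gapdh, the 2 groups alone, the adjusted t-test and probe sets averaged per gene. In SCI3d against controls (1 as reported) it was 2 with the unadjusted t-test and 0 with probe sets averaged per gene, and in SCI14d against SCI8d (0 as reported) it was 1 with the unadjusted t-test. Il6st changed sign on other probe sets: in SCI3d against controls to -0.40 (1373140_at) and -0.38 (1383489_at), in SCI8d against SCI3d to 0.36 and 0.25, and in SCI14d against SCI3d to 0.69 and 0.49, and to 0.10 with the mean of its probe sets. The cause was not tested. Probe sets called ranged, over the settings that tested probe sets singly and left out no single array, over 3164 to 7942 in SCI3d (5109 as reported), 882 to 6272 in SCI8d (1952) and 92 to 5238 in SCI14d (989), all against controls. Scaling to Gapdh moved the median of all probe sets in SCI14d against controls to 0.32, against 0.08 as reported. With the replicate number as a block, the 9 genes gave 3 calls in SCI14d against SCI3d, where Il6 passed (3.59, adjusted p = 0.0382, limma). Their counts in the other comparisons were unchanged. Probe sets called in SCI14d + TM against controls were 176 with the block, against 111 as reported. Same-numbered arrays correlated at -0.12 to 0.16 in their deviations from group means. Such values cannot decide whether the numbers mark a pairing or a shared batch. The t-test was not run for the difference between training effects, and the filter on dim probe sets left out Lif.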
